A study of Mus musculus with 9 samples.

Results

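Aminoacyl-tRNA synthetases are the enzymes that join each amino acid to its transfer RNA, the step that supplies the ribosome with charged tRNA. The cell keeps one set in the cytosol and, for most amino acids, a separate nuclear-encoded set that works inside mitochondria on the tRNAs made from the mitochondrial genome. Several cytosolic enzymes are bound together in the multisynthetase complex, and many cytosolic synthetase genes are known targets of ATF4, the transcription factor of the amino acid response. In these libraries 37 genes of 53819 rows matched the synthetase naming pattern, which takes the one-letter amino acid code followed by ars, together with Eprs and the phenylalanine enzymes. Of these, 20 were cytosolic (Farsa and Farsb are the 2 subunits of one enzyme) and 17 mitochondrial. All 37 passed the filter on low counts that left 12488 genes for testing. The naming pattern did not match Tarsl2, a further cytosolic threonine enzyme listed under an older symbol, at 6.76 to 28.5 CPM (counts scaled to a common library size).

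The data are read counts per gene from total RNA of C57BL/6J mouse morulae, embryos at the compacting stage before the blastocyst, made by in vitro fertilisation with the Nakagata method and CARD media. The groups differ in the sire: control, 6% ethanol or 10% ethanol, with 3 libraries each. The study asked how alcohol consumption by the father before conception relates to gene expression in the embryos. The labels used here do not give the number of embryos or sires in a library, and the p-values therefore cover variation from library to library, some of which may be technical. Libraries are numbered in accession order within a group and a number pairs nothing.

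Total counts ranged from 6263465 to 27619281 per library. The count column had a long header in 4 libraries (control 2, 6% ethanol 1, 10% ethanol 1 and 10% ethanol 2; 19574710 to 27619281 counts) and a short one in 5 (6263465 to 11026334 counts). What the header form stands for is not stated. The share of tested genes with a count of 0 was highest in control 3 (7.30%), 6% ethanol 2 (13.5%) and 6% ethanol 3 (8.42%) and between 1.50% and 4.45% in the other 6. All 11 morula markers had counts, with summed levels of 2356 to 5609 CPM. Of 10 cumulus and granulosa cell markers, 6 were at 0 in every library, among them Has2, Ptx3 and Fshr. Tnfaip6, Foxl2, Amhr2 and Star had counts, and 2 of the 10 passed the filter. The list summed to 6.11 to 17.6 CPM in control, 4.40 to 63.0 in 6% ethanol and 6.54 to 71.3 in 10% ethanol libraries. Of 7 sperm markers 5 were at 0 (sum at most 3.52 CPM), and blood markers summed to at most 0.254 CPM. In whole embryos, fewer cells of a type and less RNA per cell cannot be told apart.

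Promoter stretches are shown for 3 cytosolic enzymes whose upstream window held letters of the element that ATF4 is known to bind; most of the cytosolic promoters searched held none. Promoters of 27 of the 37 genes were found in a RefSeq table (build GRCm38.p6), each covering 250 bases before to 50 after the gene's start. The letters TGATGNAA were searched on both strands, and TGATGCAA, a stricter form contained in it, was counted separately. The first was found in 1304 of 32851 promoters of that length (3.97%) and in those of 5 of 13 cytosolic genes (Yars, Gars, Aars, Iars and Tars). The second was found in 294 promoters (0.895%) and in 4 of the 13 (Yars, Aars, Iars and Tars). None of 15 promoters of 14 mitochondrial genes held either. For Gars, Aars and Tars a match lay upstream of the start, and the stretch around it is printed 5′ to 3′ on the gene's strand, with the match in capitals as its reverse complement. Tars lies on the minus strand and the other two on the plus strand. The positions are Gars chr6:55037951-55037998, Aars chr8:111033710-111033757 and Tars chr15:11399659-11399693.
Gars: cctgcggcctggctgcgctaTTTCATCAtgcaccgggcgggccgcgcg
Aars: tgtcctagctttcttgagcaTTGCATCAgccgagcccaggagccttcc
Tars: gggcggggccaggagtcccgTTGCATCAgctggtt
Aars and Tars carry the same 8 letters, which fit the stricter form, and Gars fits the wider form alone. A match describes letters in a window and does not show binding.

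The cytosolic set was detected at a level well above the mitochondrial one, and its sum varied little between libraries. Levels are CPM on library sizes scaled by the trimmed mean of M values (TMM). The 20 cytosolic genes summed to 3607, 4074 and 3856 CPM in the control libraries, 3983, 4219 and 3981 in the 6% ethanol libraries and 3513, 3941 and 3531 in the 10% ethanol libraries. Their mean over the 9 libraries was 3856 ± 251 (SD), a coefficient of variation of 6.51%, and the highest library stood 1.20 times above the lowest. The 16 mitochondrial genes other than Lars2 summed to 272, 374 and 473 CPM in control, 394, 339 and 367 in 6% ethanol and 338, 404 and 405 in 10% ethanol libraries. Control 1 was the lowest and control 3 the highest of all 9, so the control libraries spanned both ethanol groups. The cytosolic sum was 10.5 ± 1.62 (SD, n = 9) times this mitochondrial sum, with a range of 8.16 in control 3 to 13.3 in control 1.

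**Figure D1:**
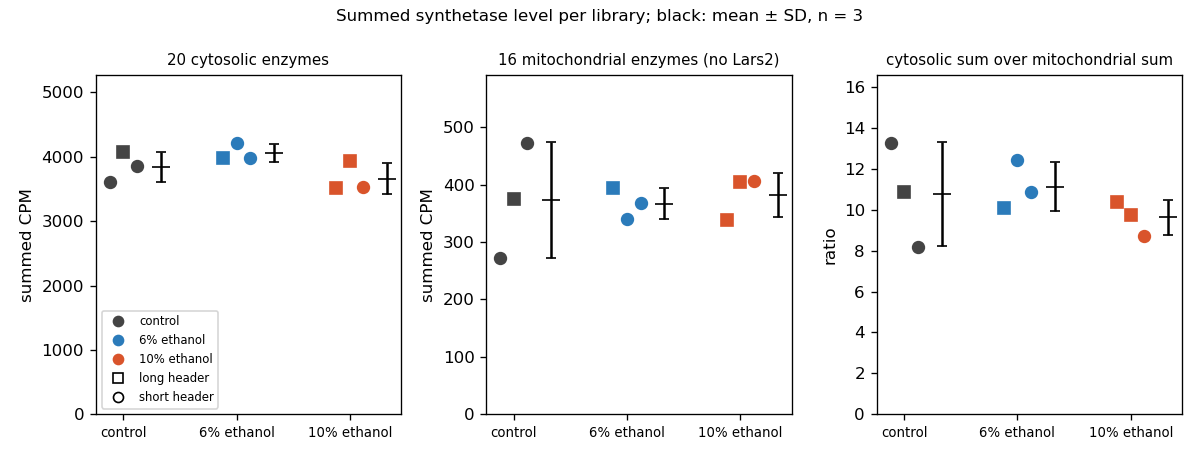
Summed CPM of the 20 cytosolic synthetases (left), of the 16 mitochondrial ones without Lars2 (middle) and their ratio (right), by sire group. Points are libraries (squares long header, circles short header) and black marks are the mean ± SD of 3; the cytosolic sums lie between 3513 and 4219 CPM, and the widest group in the middle panel is control.

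By group the cytosolic sum was 3846 ± 234 CPM in control, 4061 ± 137 in 6% ethanol and 3662 ± 242 in 10% ethanol (SD, n = 3). Both ethanol groups overlapped control, while the 3 libraries of 10% ethanol all lay below the 3 of 6% ethanol; no test was made of the sum. The 8 enzymes of the multisynthetase complex (Eprs, Iars, Lars, Mars1, Qars, Rars, Kars and Dars) summed to 2245 ± 82.5, 2304 ± 287 and 2143 ± 203 CPM in control, 6% and 10% ethanol. The other 12 cytosolic genes came to 1601 ± 152, 1757 ± 393 and 1519 ± 186 CPM. The 13 genes known as ATF4 targets came to 2381 ± 78.0, 2476 ± 533 and 2151 ± 174 CPM. In each of these 3 sums the group means differed by less than the largest SD among the groups. The mitochondrial sum without Lars2 was 373 ± 101, 367 ± 27.4 and 382 ± 38.4 CPM.

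Between genes, levels are compared per kilobase of transcript. The highest cytosolic genes were Kars, the lysine enzyme, at 191 CPM per kilobase on average, Rars, the arginine enzyme, at 161, and Gars, the glycine enzyme, at 120. Kars and Gars each also encode the enzyme of the mitochondria, and are classed as cytosolic here. In CPM, Kars had 418, 447 and 344 in control, 512, 229 and 460 in 6% ethanol and 461, 481 and 311 in 10% ethanol libraries. Gars had 297, 325 and 209, then 409, 142 and 260, then 318, 394 and 208. Both were lowest in 6% ethanol 2, and their groups overlapped. Rars had 230, 288 and 409 CPM in control, 278, 472 and 524 in 6% ethanol and 241, 234 and 372 in 10% ethanol libraries, highest in 6% ethanol 3. The lowest cytosolic genes per kilobase were Vars, the valine enzyme, at 6.74, and Cars, the cysteine enzyme, at 14.8. Vars had 23.4, 39.6 and 25.2 CPM in control, 31.6, 8.78 and 19.8 in 6% ethanol and 41.7, 32.1 and 23.6 in 10% ethanol libraries. Cars had 50.1, 61.9 and 30.6 CPM, then 38.6, 89.7 and 47.5, then 30.3, 35.3 and 45.6. The library 6% ethanol 2 was the lowest for Vars and the highest for Cars. Eprs, which charges both glutamate and proline, had the most reads of a cytosolic gene, with a mean of 491 CPM (297 to 652).

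Among mitochondrial genes, Lars2 stood apart at a mean of 703 CPM per kilobase and is described separately. By library it ran from 63.6 in 6% ethanol 3 to 4432 in 10% ethanol 1. It was followed by Yars2 and Tars2, both at 17.9. Tars2, the threonine enzyme, had 31.4, 26.1 and 44.9 CPM in control, 33.9, 36.7 and 109 in 6% ethanol and 19.4, 36.1 and 49.4 in 10% ethanol libraries, with 6% ethanol 3 the highest. The lowest were Fars2, the phenylalanine enzyme, at 0.650 CPM per kilobase and Vars2, the valine enzyme, at 1.02. Fars2 had 0, 3.22 and 0.293 CPM in control, 1.99, 0.764 and 1.65 in 6% ethanol and 0.836, 0.950 and 2.74 in 10% ethanol libraries. Its count of 0 in control 1, like that of Pars2 in 6% ethanol 2, allows up to 3 counts. Fars2 was near the limit of detection in every group. The median was 61.5 CPM per kilobase over the cytosolic and 8.80 over the mitochondrial genes.

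**Figure D2:**
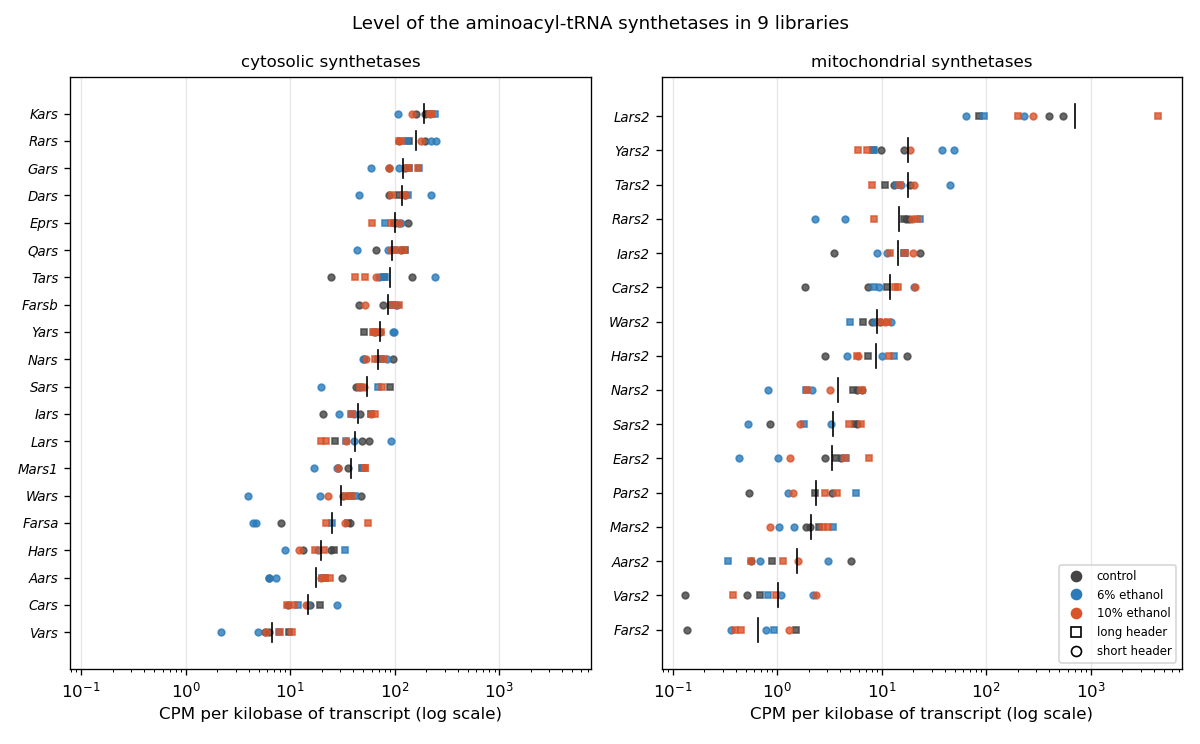
CPM per kilobase of transcript (log axis) of 20 cytosolic and 16 mitochondrial synthetases in the 9 libraries, with colours for sire groups and squares for long-header libraries. Counts of 0 (Fars2 in control 1, Pars2 in 6% ethanol 2) are not drawn; Lars2 spans the widest range, and Kars, Rars and Gars lead the cytosolic genes.

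Pairing each mitochondrial gene with the cytosolic gene for the same amino acid gave 17 pairs. The cytosolic partner was higher per kilobase in the mean for 16 of them. The ratio of means was largest for proline (Eprs over Pars2, 42.4), phenylalanine (Farsa over Fars2, 38.6) and glutamate (Eprs over Ears2, 30.1). Phenylalanine was paired with Farsa, at 25.1 CPM per kilobase. Farsb, the gene of the other subunit, was at 85.7 and was not paired, so the place of phenylalanine rests on this choice. The ratio of means was smallest among the 16 for cysteine (Cars over Cars2, 1.25), where the cytosolic gene was higher in 6 of 9 libraries. For histidine (2.21) and tryptophan (3.40) the cytosolic gene was higher in 8 of 9 libraries, and for the other 13 in all 9. Leucine was the exception: Lars was at 0.0593 times Lars2 in the mean and lay below it in each of the 9 libraries. By library, Lars was at 0.00497 to 0.645 times Lars2, the lowest ratio being that of 10% ethanol 1. These ratios rest on 1 transcript length per gene, and that of Mars2 was 11294 bases, which lowers its level per kilobase.

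Spread between libraries was smaller for the cytosolic genes. The SD of log2(CPM + 0.5) over the 9 libraries had a median of 0.54 over the 20 cytosolic genes, 0.999 over the 17 mitochondrial genes and 1.05 over all 12488 tested genes. The median level also differed, at 178 CPM for cytosolic, 23.9 for mitochondrial and 14.7 for all tested genes. Counting noise is larger for low genes, and its part in the difference of spread was not tested. Among genes with a mean of at least 100 CPM, the median SD was 0.49 over 15 cytosolic genes and 0.65 over all 1957. Below 100 CPM it was 0.66 over the remaining cytosolic genes, 0.99 over mitochondrial genes and 1.13 over all genes. The steadiest were Yars, the tyrosine enzyme (SD 0.31, percentile 0.769 of all tested genes), Eprs (0.33), Nars (0.34) and Kars (0.38). Wars2, the tryptophan enzyme, was the steadiest mitochondrial gene (0.40, mean 40.1 CPM). The widest were Lars2 (1.84, percentile 92.9), Pars2 (1.57) and, among cytosolic genes, Farsa (1.34), the catalytic subunit of the phenylalanine enzyme. Spread was not tested between the classes.

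**Figure D3:**
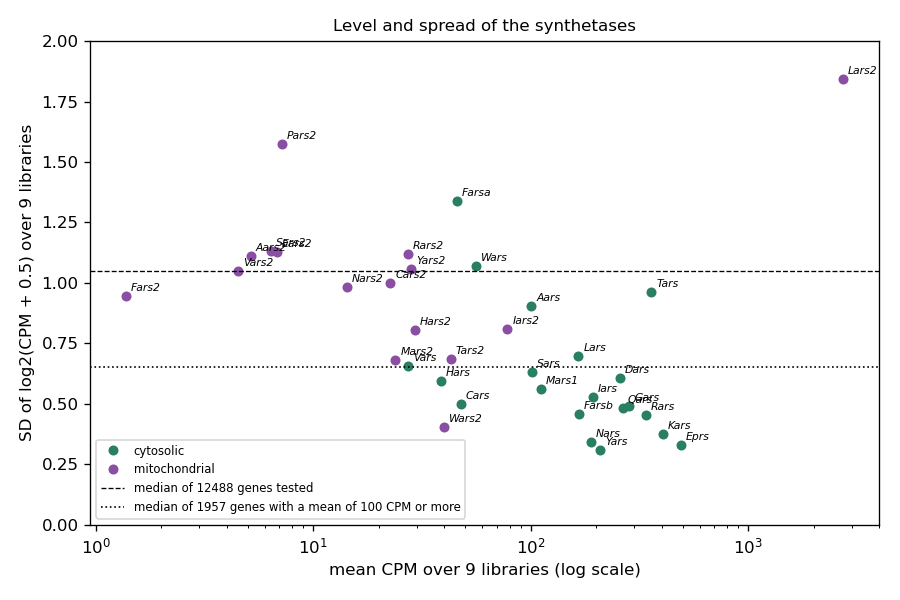
Mean CPM over 9 libraries (log axis) against the SD of log2(CPM + 0.5) for 20 cytosolic (green) and 16 mitochondrial (purple) synthetases. The dashed line is the median SD of all 12488 tested genes (1.05) and the dotted line that of the 1957 genes with at least 100 CPM (0.65); Lars2 is the only synthetase with both a high level and a spread above the dashed line.

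Few synthetases separated the 3 libraries with the highest share of tested genes at 0 from the other 6, no more than among all genes. Aars, the alanine enzyme, had 35.9, 42.4 and 36.0 CPM in control 3, 6% ethanol 2 and 6% ethanol 3, the libraries with the highest such share, and 112 to 179 CPM in the other 6. Farsa had 15.0, 8.59 and 8.04 CPM there and 39.8 to 101 CPM elsewhere. Asns, the asparagine synthetase that is a standard target of ATF4, picked from the response genes after its values were seen, had 15.5 to 21.2 CPM there against 37.0 to 54.6. Aars and Farsa were the 2 of 37 synthetases that were lower without overlap, and Rars, at 409 to 524 CPM against 230 to 372, the 1 that was higher. Over all tested genes 8.1% were lower and 6.63% higher without overlap in this split, so the synthetases' 2 and 1 of 37 give no result about them as a class. Atf4 itself had 47.1, 159 and 63.1 CPM in those libraries and 117 to 373 in the others, and overlapped. The listed response genes together summed to 1584, 2562 and 1454 CPM there and to 1237 to 3663 CPM in the others, and overlapped as well. The split was chosen after values had been seen, and the part of library quality in it was not tested.

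No synthetase passed a test of header form. Mars1, the methionine enzyme, averaged 150 CPM in the 4 long-header and 81.5 CPM in the 5 short-header libraries, and Yars2 averaged 11.8 and 41.4 CPM. Without overlap, Mars1, Gars, Vars and Mars2 were higher and Eprs and Yars2 lower in long-header libraries, 6 of 37, where 9.07% of tested genes did not overlap. By direction these were 4 of 37 beside 4.28% of genes and 2 of 37 beside 4.8%. With edgeR's quasi-likelihood test of header form, 13 genes (0.104%) passed an adjusted p of 0.05, none of them a synthetase, and 3 synthetases had an unadjusted p under 0.05, where 14.8% of tested genes did. Differences within a header form are given below for several genes; within a form some groups have 1 library, whose spread is taken from the other groups.

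With 6% ethanol sires, no synthetase passed the test against control. The test is edgeR's quasi-likelihood F test with Benjamini-Hochberg adjustment over all 12488 genes, and differences are log2 fold changes ± SE. None of the 12488 genes passed (0%), 779 had an unadjusted p under 0.05 (6.24%), and the same count among the 37 synthetases was 1. DESeq2 called 31 genes (0.248%) and limma voom 0, with no synthetase in either. The cytosolic genes lay above 0 in 7 and below in 13 cases, with a median of -0.10, and the mitochondrial genes in 8 and 9, with a median of -0.11, beside a median of -0.01 over all genes. In all, 15 of 37 lay above 0, where 49.5% of all genes did. The groups did not overlap for 2 synthetases (Nars2 and Vars2), where 8.06% of all genes did not overlap.

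Nars2, the mitochondrial asparagine enzyme, had 24.4, 20.3 and 21.8 CPM in control, 7.07, 8.21 and 3.08 in 6% ethanol and 7.27, 24.4 and 11.97 in 10% ethanol libraries. All 6% ethanol libraries lay below all controls, while 10% ethanol 2 was level with control 1. The difference of 6% ethanol from control was -1.86 ± 0.82 (unadjusted p = 0.0424, adjusted p = 0.799, edgeR); DESeq2's adjusted p was 0.286, and leaving out 1 library at a time gave -2.11 to -1.57. Within long-header and short-header libraries it was -1.51 and -2.06. Yars2, the mitochondrial tyrosine enzyme, had 15.4, 13.1 and 25.5 CPM in control, 13.4, 77.5 and 59.0 in 6% ethanol and 11.3, 9.32 and 29.6 in 10% ethanol libraries. Both 6% ethanol libraries with a short header were high, and the long-header one lay among the controls. Its difference of 6% ethanol from control was 1.47 ± 0.79 (adjusted p = 0.819, edgeR), 1.73 within short-header and 0.03 within long-header libraries. Vars2, below 10 CPM on average in every group, had 2.29, 3.03 and 0.586 CPM in control, 3.64, 4.77 and 9.80 in 6% ethanol and 1.67, 4.28 and 10.5 in 10% ethanol libraries. Its 6% ethanol libraries all lay above control, with a difference of 1.61 ± 1.15 (adjusted p = 0.837, edgeR).

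With 10% ethanol sires, again no synthetase passed against the same controls. Of 12488 genes 0 passed (0%), 267 had an unadjusted p under 0.05 (2.14%), and 0 of 37 synthetases did. DESeq2 called 10 genes (0.0801%) and limma voom 0, with no synthetase among them. Cytosolic genes lay above 0 in 11 and below in 9 cases (median 0.06), and mitochondrial genes in 11 and 6 (median 0.08), beside a median of -0.05 over all genes. In all, 22 of 37 lay above 0, and 47.1% of all genes. The groups did not overlap for 2 synthetases, one of them Cars2, and for 8.06% of all genes.

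Cars2, the mitochondrial cysteine enzyme, had 3.51, 21.2 and 14.1 CPM in control, 15.9, 38.8 and 17.9 in 6% ethanol and 27.4, 25.5 and 39.2 in 10% ethanol libraries. All 10% ethanol libraries lay above all controls, and control 1 was far below the rest. The difference of 10% ethanol from control was 1.25 ± 0.78 (adjusted p = 0.9999, edgeR) and was 0.80 without control 1 and 1.82 without control 2. Within long-header libraries it was 0.32 and within short-header ones 2.16. Lars, the cytosolic leucine enzyme of the multisynthetase complex, had 225, 107 and 193 CPM in control, 137, 366 and 163 in 6% ethanol and 87.7, 78.1 and 136 in 10% ethanol libraries. Only 10% ethanol 3 reached into the control range, and the difference was -0.80 ± 0.52 (adjusted p = 0.9999, edgeR), or -0.37 within long-header libraries.

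Between the ethanol groups, no synthetase passed the test at the filter used. None of 12488 genes passed (0%), 665 had an unadjusted p under 0.05 (5.33%), and among synthetases Lars2 alone did. DESeq2 called 34 genes (0.272%) and limma voom 0, with no synthetase. Against 6% ethanol, cytosolic genes lay higher in 10 and lower in 10 cases (median 0.00) and mitochondrial genes in 12 and 5 (median 0.29), beside -0.02 over all genes. The 22 of 37 that lay above 0 compare with 49.5% of all genes. The groups did not overlap for 2 synthetases, Lars and Tars, and for 9.66% of all genes. For Lars the 10% ethanol libraries lay below all 3 of 6% ethanol, with a difference of -1.14 ± 0.53 (unadjusted p = 0.0502, adjusted p = 0.806, edgeR), or -0.57 without 6% ethanol 2 and -0.73 within long-header libraries. Tars, the cytosolic threonine enzyme, had 99.0, 316 and 585 CPM in control, 320, 982 and 284 in 6% ethanol and 167, 207 and 264 in 10% ethanol libraries. Its 10% ethanol libraries lay below those of 6% ethanol, of which 6% ethanol 2 was far above the others, while control spanned most of the range of both. The Tars difference was -1.31 ± 0.65 (adjusted p = 0.806, edgeR), and -0.50 without 6% ethanol 2 and -0.78 within long-header libraries.

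With both ethanol groups against the controls, which the preceding comparisons share, no gene passed (0%), 509 had an unadjusted p under 0.05 (4.08%) and 0 of 37 synthetases did. DESeq2 called 17 genes (0.136%) and limma voom 0, none of them a synthetase. Nars2 (-1.23 ± 0.66) and Cars2 (1.08 ± 0.70) were among the 3 synthetases of smallest p, each with an adjusted p of 0.999 by edgeR. No synthetase had groups without overlap, where 1.79% of all genes did. The median was -0.09 over cytosolic and -0.03 over mitochondrial genes, beside -0.03 over all, and 16 of 37 lay above 0, where 48.6% of all genes did. The SE had a median of 0.45 over the cytosolic genes and 0.87 over all genes in this comparison.

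**Figure D4:**
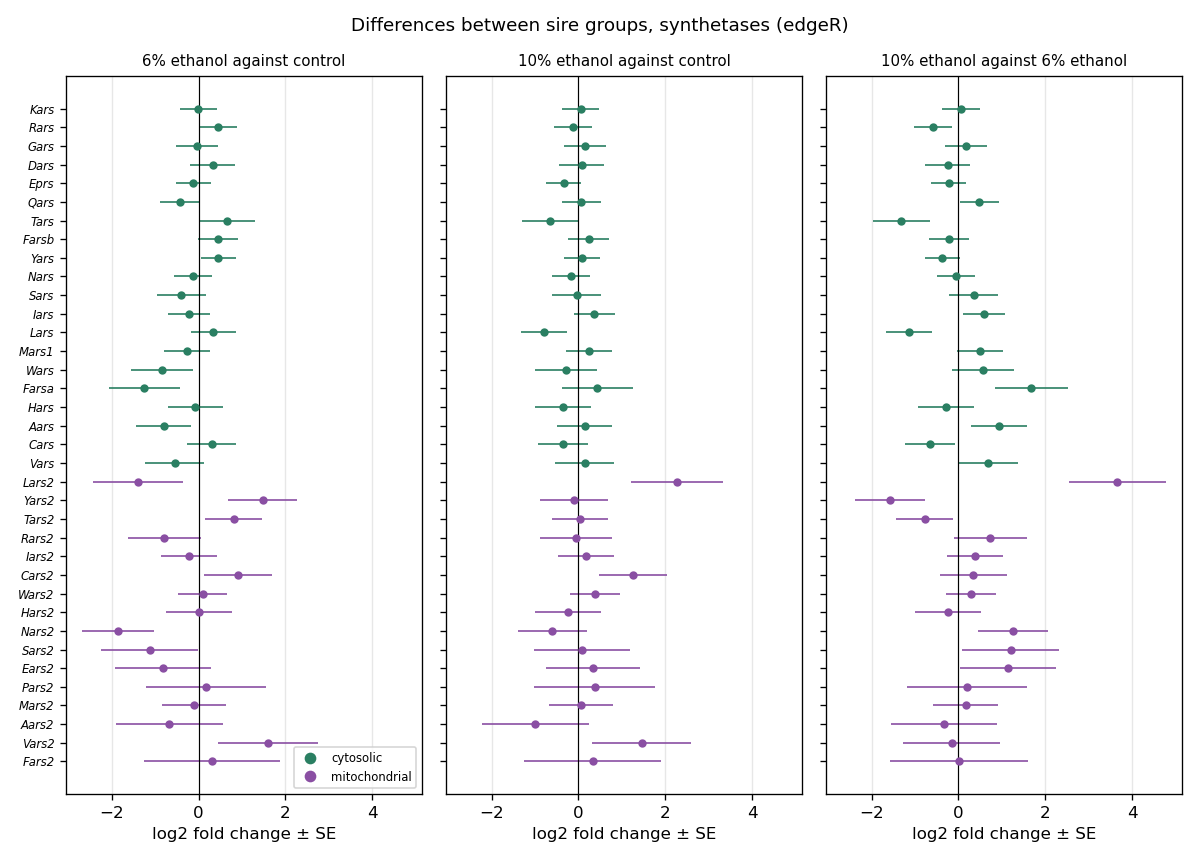
Log2 fold change ± SE (edgeR) of 20 cytosolic and 16 mitochondrial synthetases, ordered by class and level, in 3 comparisons between sire groups; the first 2 share the control libraries and the third shares libraries with both. Most cytosolic genes (green) lie within 1 of 0, and Lars2 has the largest difference in the 2 right panels, where it rests on 10% ethanol 1.

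Lars2, annotated as the mitochondrial leucine enzyme, behaved unlike the other 36. It had 2105, 333 and 1544 CPM in control, 368, 899 and 248 in 6% ethanol and 17258, 788 and 1091 in 10% ethanol libraries. The 10% ethanol 1 library was 69.6 times the lowest library, 6% ethanol 3, and the next highest, control 1, was at 2105 CPM. Lars2 made up 40.3% to 98.1% of the summed mitochondrial synthetase CPM and 5.39% to 81.8% of the sum over all 37. These levels rest on 2251 to 330176 counts. Per kilobase it was first of the 37 in 4 libraries and as low as the tenth in 6% ethanol 3.

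Rn18s, the 18S ribosomal RNA of the cytosolic ribosome, had 11551, 476 and 1186 CPM in control, 580, 711 and 281 in 6% ethanol and 19658, 1053 and 1085 in 10% ethanol libraries. Its highest library was that of Lars2, its lowest library was that of Lars2, and control 1 was high for both. Lars2 per Rn18s was 0.182 in control 1 and 0.635 to 1.30 in the other 8 libraries. Rn18s fell into 2 clusters, with control 1 and 10% ethanol 1 far above the 7 other libraries, which were at 281 to 1186 CPM, so the relation was computed within the 7. There log2 Lars2 followed log2 Rn18s with Pearson's r = 0.926 (exact permutation p = 0.00496, adjusted over 3 relations 0.0149) and Spearman's rho = 0.964 (exact p = 0.00278, adjusted 0.00833), two-sided. The 7 were chosen after values had been seen, and the p-values do not allow for that choice. They leave out control 1, the library with the lowest Lars2 per Rn18s, while the relations to mt-Rnr2 and mt-Rnr1 used 9 libraries. Without control 3 and 6% ethanol 3, the libraries farthest from the median of Rn18s, r was 0.875 and rho 0.90 (n = 5, exact permutation p of r = 0.0917); with so few libraries the adjusted threshold is hard to reach, and both stayed close to their values over 7. Leaving out 1 of the 7 at a time gave r of 0.907 to 0.946 (adjusted exact p from 0.00833 to 0.0417). Neither header form has 6 libraries, so no r was computed within a form; the 4 long-header libraries had 0.635 to 0.878 Lars2 counts per Rn18s count and the 5 short-header ones 0.182 to 1.30.

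The mitochondrial 16S ribosomal RNA, mt-Rnr2, had 53873, 75469 and 51698 CPM in control, 109860, 53146 and 72194 in 6% ethanol and 150756, 104602 and 107039 in 10% ethanol libraries. It too was highest in 10% ethanol 1, but control 1 and control 3, which followed it in Lars2, were among the 3 libraries with the least mt-Rnr2. All 10% ethanol libraries lay above all controls for mt-Rnr2, with a difference of 1.001 ± 0.37 (unadjusted p = 0.0181, adjusted p = 0.9999, edgeR). Over the 9 libraries r between Lars2 and mt-Rnr2 was 0.308 (exact permutation p = 0.443, adjusted 0.551) and rho 0.0167 (exact p = 0.982), and r became -0.303 without control 3 and 10% ethanol 1. For mt-Rnr1, the 12S RNA, r was 0.230 (exact permutation p = 0.551, adjusted 0.551) and rho 0.100 (exact p = 0.810). A correlation of this size was not detectable as different from 0 with 9 libraries.

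**Figure D5:**
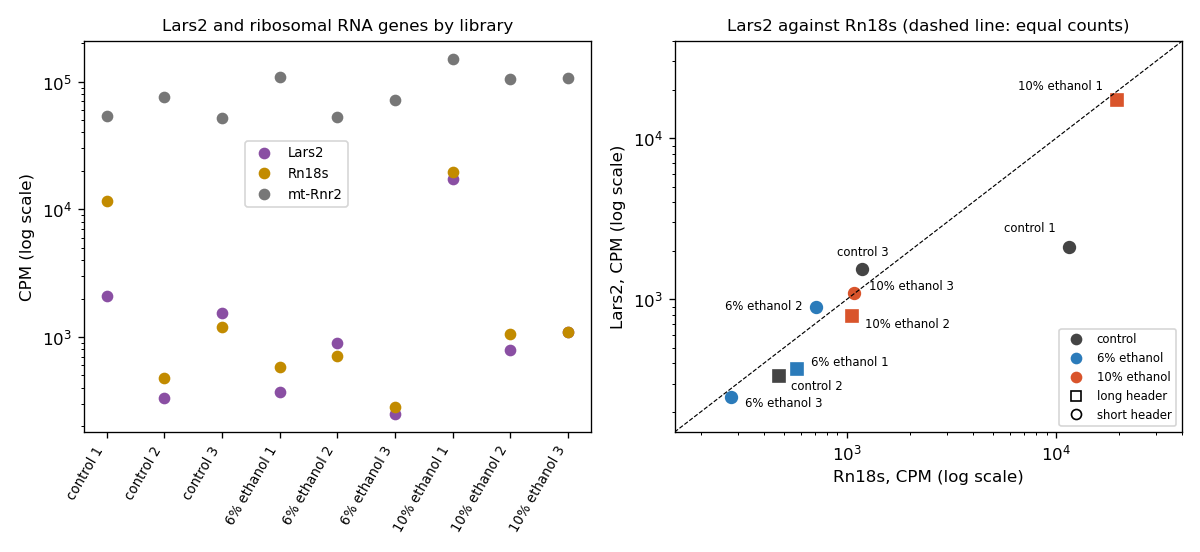
Left, CPM (log axis) of Lars2, Rn18s and mt-Rnr2 in each library; right, Lars2 against Rn18s on log axes with a dashed line of equal counts and squares for long-header libraries. In 8 libraries Lars2 per Rn18s is 0.635 to 1.30, and control 1 lies below the line at 0.182.

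The Lars2 differences of 10% ethanol from control and from 6% ethanol followed the library 10% ethanol 1. Against control, 10% ethanol differed by 2.26 ± 1.06 (unadjusted p = 0.0525, adjusted p = 0.9999, edgeR), and by -0.49 without 10% ethanol 1. Against 6% ethanol it differed by 3.66 ± 1.12 (unadjusted p = 0.00649, adjusted p = 0.806, edgeR; DESeq2 adjusted p = 0.102), and by 0.95 without that library. With no filter on low counts, 26610 genes were tested and Lars2 passed in both, at 2.32 (adjusted p = 0.00160) and 3.78 (adjusted p = 4.60e-10). The adjusted p thus ran from 4.60e-10 to 1 over the alternatives. Against control, 6% ethanol differed by -1.39 ± 1.03 (adjusted p = 0.841, edgeR), and by -2.10 to -0.90 with single libraries left out. Rn18s differed in the same 3 comparisons by 0.72 ± 1.17, 3.79 ± 1.30 and -3.07 ± 1.26, with adjusted p of 0.9999, 0.806 and 0.799 by edgeR. For both genes the groups overlapped except for Rn18s between the ethanol groups. The labels name no step of rRNA removal or poly(A) selection, and the part of rRNA-like signal in the Lars2 values was not tested.

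The Lars2 transcript with the longest coding sequence was compared with an 18S-like transcript, mt-Rnr2 and mt-Rnr1 of the GENCODE M21 set. The longest exact run it shared was 13 bases with the 18S-like transcript, 12 bases with mt-Rnr2 and 14 with mt-Rnr1. Over the transcripts of all 37 synthetases these longest runs were 10 to 14, 10 to 14 and 9 to 14 bases, with a median of 11 for each. This Lars2 transcript was thus within the range of the other synthetases for these ribosomal RNAs. The 28S and 45S sequences, other ribosomal RNA entries and any other Lars2 transcript were not compared. Whether the Lars2 gene model holds rRNA-like sequence elsewhere was not tested.

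Of 18 other genes of tRNA charging fixed as a list (scaffold proteins of the multisynthetase complex, the mitochondrial amidotransferase, editing factors and tRNA export), 17 were tested and none passed in any comparison. Against control, 5 were higher and 12 lower in 6% ethanol (median -0.48, beside -0.01 over all genes), and 9 higher and 8 lower in 10% ethanol (median 0.14, beside -0.05). Eef1e1, also called AIMP3, a scaffold protein of the multisynthetase complex, had 28.01, 28.5 and 34.5 CPM in control, 65.2, 197 and 98.9 in 6% ethanol and 61.7, 43.5 and 35.3 in 10% ethanol libraries. Eef1e1 had every ethanol library above every control, where 1.79% of all tested genes did not overlap. The nearest were 10% ethanol 3 at 35.3 and control 3 at 34.5 CPM. Its 10% ethanol libraries all lay below those of 6% ethanol, where 9.66% of tested genes did not overlap. Against control it differed by 1.99 ± 0.57 in 6% ethanol (unadjusted p = 0.00437, adjusted p = 0.799, edgeR; DESeq2 adjusted p = 0.0922) and by 0.63 ± 0.55 in 10% ethanol (adjusted p = 0.9999, edgeR). Within long-header libraries the 6% ethanol difference was 1.20 and within short-header ones 2.23. Aimp2, another scaffold protein, had 44.4 ± 9.54, 21.6 ± 17.4 and 48.8 ± 1.84 CPM in control, 6% and 10% ethanol (SD, n = 3). Its ethanol groups did not overlap either, nor did those of some other genes of the list.

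Aimp1 had 49.7, 78.0 and 342 CPM in control, 49.9, 338 and 70.8 in 6% ethanol and 62.2, 44.6 and 106 in 10% ethanol libraries, so 1 control and 1 ethanol library were high. Its difference of 10% ethanol from control was -1.14 ± 0.84 (adjusted p = 0.9999, edgeR) and turned to 0.14 without control 3. Gatc, a subunit of the mitochondrial amidotransferase that makes glutaminyl-tRNA, had 3.27, 6.21 and 13.6 CPM in control, 10.3, 6.49 and 151 in 6% ethanol and 4.02, 11.3 and 29.2 in 10% ethanol libraries. One library, 6% ethanol 3, carried its difference of 2.86 ± 1.22 (adjusted p = 0.799, edgeR), which was 0.12 without it. Prorsd1, a protein with a prolyl-tRNA editing domain, had 147, 15.9 and 9.53 CPM in control, 27.2, 4.20 and 18.3 in 6% ethanol and 14.3, 11.7 and 8.32 in 10% ethanol libraries. Control 1 alone was high, and the difference of both ethanol groups from control went from -2.06 ± 0.83 (adjusted p = 0.999, edgeR) to 0.11 without it. Mtfmt, which formylates the mitochondrial initiator methionyl-tRNA, had 18.9, 24.4 and 8.21 CPM in control, 18.3, 154 and 9.14 in 6% ethanol and 17.2, 14.2 and 9.46 in 10% ethanol libraries. Only 6% ethanol 2 was high, and the difference between the ethanol groups was -2.15 ± 0.98 (adjusted p = 0.806, edgeR), or -0.0027 without it.

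Genes of the amino acid response were read beside the synthetases as the pathway known to raise them together. Of 18 listed, 16 were tested and none passed. Against control, 3 lay higher and 13 lower in 6% ethanol (median -0.72, beside -0.01 over all genes). In 10% ethanol, 6 lay higher and 10 lower (median -0.32, beside -0.05). The 18 summed to 2427 ± 770, 2332 ± 790 and 2702 ± 1289 CPM in control, 6% and 10% ethanol (SD, n = 3). The lean of the list was not tested, and neither was the part of single libraries or library quality in it. Atf4 had 373, 176 and 47.1 CPM in control, 117, 159 and 63.1 in 6% ethanol and 214, 132.5 and 123.5 in 10% ethanol libraries. The control libraries held both the highest and the lowest of the 9. Its difference from control was -0.82 ± 0.66 in 6% ethanol (adjusted p = 0.858, edgeR) and -0.35 ± 0.66 in 10% ethanol (adjusted p = 0.9999, edgeR), and without control 1 these became -0.014 and 0.48. Without control 3 they were -1.33 and -0.81. Over the 13 synthetases known as ATF4 targets, 4 lay above and 9 below 0 in 6% ethanol (median -0.12), and 6 above and 7 below in 10% ethanol (median -0.04).

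The substrates of the mitochondrial enzymes were barely measured. The 22 mitochondrial tRNA rows summed to 104 to 753 counts per library, 1 was at 0 in all 9 libraries, and mt-Tl1, a leucine tRNA, made up 21.7% to 84.3% of them. At these counts no comparison was drawn from them.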

How the data were processed

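Total RNA of 9 morula libraries (3 per sire group) was sequenced. The authors deposited 1 table of raw read counts per gene for each library; featureCounts, DESeq2 and the build GRCm39 (mm39) are named per the submitters' processing notes, without versions. Per the file headers, the 4 long-header count columns name RNA STAR; the aligner of the others, the annotation and the strand setting are not given in the sources used here, so reads of overlapping or antisense genes cannot be told apart. Counts were analysed with edgeR 4.0.16 in R 4.3.3: filterByExpr on the sire groups, TMM scaling, glmQLFit over all 9 libraries and glmQLFTest, with Benjamini-Hochberg adjustment over 12488 genes at 0.05. Alternatives were DESeq2 1.42.0, limma 3.58.1 (voom with quality weights), other scalings and filters, header form, and each library left out. Exact permutation tests went through all pairings of the libraries, with ranks from SciPy 1.17.1. In a test on simulated data for 6% ethanol against control (12048 genes), edgeR called 1 of 50 genes given a 4-fold difference, 23 at 16-fold and 39 at 256-fold. The changed genes were drawn across the tested genes. In this comparison the median SE was 0.52 over cytosolic synthetases and 1.02 over all genes, so these rates do not describe the cytosolic synthetases. A count of 0 allows up to 3 counts, for counting error only.

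The members and lists were chosen with earlier results of these data known. Described singly were Lars2, the 3 synthetases of smallest p in each comparison, the 3 highest and 2 lowest per kilobase of each class, those whose groups did not overlap at 10 CPM or more, Atf4, the rRNA genes and the 2 other pathway genes of smallest p in each comparison. Values of 1 mitochondrial synthetase are not reported here singly; it is included in counts, sums and medians. Eprs, Yars, Nars, Wars2, Pars2, Farsa, Aars, Mars1, Mars2, Tarsl2, Aimp2 and Asns were named after their values were seen, and the 7-library relation of Lars2 to Rn18s, the header form test and the split by genes at 0 were chosen then. Transcript lengths are those of the transcript with the longest coding sequence in GENCODE M21.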

Additional observations from a re-analysis of the deposited data

How the results depend on the processing

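No synthetase passed in any alternative fit other than Lars2 without a filter. The number of genes passing was 0 in the 4 comparisons (6% ethanol against control, 10% ethanol against control, 10% against 6% ethanol, both against control) and 0 with each library left out. In that order it was 140, 47, 147 and 153 without a filter, 31, 10, 34 and 17 with DESeq2, 3, 9, 4 and 13 in long-header and 48, 2, 1 and 5 in short-header libraries alone, where some groups hold 1 library assumed to vary like the others; the cause was not tested. Library size alone put the median of all genes at -0.28, -0.18, 0.13 and -0.22 and the cytosolic median to -0.36 for 6% ethanol and -0.32 for both against control. The mitochondrial median was -0.58 (6% ethanol), -0.45 (10% ethanol) and -0.71 (both) against control in short-header libraries, -0.27 for 10% ethanol against control with header form as a term, and -0.26 for 10% against 6% ethanol in long-header libraries. With single libraries left out it ran from -0.53 to 0.19 for 6% ethanol, -0.06 to 0.28 for 10% ethanol and -0.29 to 0.47 for both against control, and from 0.19 to 0.70 between the ethanol groups, where the cytosolic median ran from -0.13 to 0.30. Lars2 turned to 0.15 (6% ethanol, long-header), -0.75 (10% ethanol, short-header) and -1.22 (both, short-header); with single libraries left out it ran from -0.49 to 2.80 for 10% ethanol and -0.97 to 0.94 for both, against control, being -0.49 and -0.97 without 10% ethanol 1 and -0.024 for both without control 2. Without a filter it passed at 2.32 and 3.78. For both groups, Cars2 was -0.044 and Prorsd1 0.24 in long-header libraries; with libraries left out Prorsd1 ran from -2.57 to 0.11 and Atf4 from -1.07 to 0.23. For 10% ethanol, Atf4 ran from -0.81 to 0.48 and Aimp1 from -1.55 to 0.14. The r of Lars2 with mt-Rnr2 ran from -0.429 to 0.437, negative without 10% ethanol 1. With Rn18s, within the 7 libraries chosen, it ran from 0.907 to 0.946. No paired analysis was possible because the replicate numbers come from accession order and the labels pair no libraries. In the simulated data, with changes drawn across the tested genes, few 4-fold changes were called. Depth was not varied there.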
